A study of Mus musculus with 8 samples.

Results

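The mitochondrial ribosomal protein genes are the nuclear genes whose symbols begin with Mrpl or Mrps followed by a number, for proteins of the large and the small subunit of the ribosome inside mitochondria. This rule found 77 of the 24344 gene symbols in the table, 48 named L and 29 named S, and no symbol was on more than 1 row. The tissue was whole homogenate of the occipital cortex, taken at P35 from mice of the strain C57BL/6J, and its RNA gave 8 libraries. Of these 4 came from mice without food for 48 h (fasted) and 4 from mice that ate freely (ad libitum), with no genetic change or drug named for either group. Values are FPKM, by definition fragments counted per kilobase of transcript and scaled to the mapped fragments of the library. How these values were scaled between libraries is not given in the sources used here. The labels give no batch and do not say whether a library is 1 mouse, so the p-values measure only the spread between these samples. Bulk tissue cannot tell fewer cells of a type from less RNA per cell.

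Mitochondria keep a small genome that encodes a few subunits of the respiratory chain, and a ribosome of their own translates them. The RNA of this ribosome is made inside the organelle, whereas its proteins are encoded in the nucleus, made in the cytosol and imported. Part of these proteins descend from those of bacterial ribosomes (the homologues of bacterial proteins below), and the rest arose with mitochondria. Neurons depend on oxidative phosphorylation, and hence on this translation, for most of their ATP.

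The libraries held an estimated 17300000 to 21400000 fragments, from the value at which low FPKM lay densest, an estimate bounded by its search range. It takes the definition of FPKM above as given. On this estimate the 77 genes had at least 36.4 fragments in every library, and for the median gene the lowest library had 261. Sex-linked transcripts of the mice parted the libraries by replicate number. Xist stood at 62.9 to 77.5 FPKM in the even-numbered libraries and the Y-linked Ddx3y at 10.5 to 14.4 FPKM in ad libitum replicate 1 and fasted replicates 1 and 3. Ad libitum replicate 3 held both, Xist at 32.2 FPKM and Ddx3y at 5.67, so results are also given without it. Of 5 microglial markers 4 were lower in fasted cortex, with a summed level of 44.4 to 54.1 FPKM in ad libitum and 32.1 to 35.4 FPKM in fasted libraries. For 5 astrocyte markers, 3 of them lower, the sums were 414 to 430.0 and 362 to 398 FPKM. Of 5 excitatory neuron markers 3 were lower as well, with overlapping sums (1039.5 to 1221 and 1102 to 1267 FPKM). None of the 5 markers each of inhibitory neurons, oligodendrocytes, endothelium and blood was called, and choroid plexus markers summed to at most 3.08 FPKM in any library. No marker was at 0 in all libraries. In the same test, described below, 16.3% of all tested genes were lower and 9.56% higher, and lists of 5 are too small to set against these shares. The part of these cell types in the results below was not tested.

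All 77 genes were expressed above the filter of 1 FPKM in at least 4 libraries, so none was left out. Their mean levels ran from 2.20 to 85.7 FPKM with a median of 13.8, and 49 of them lay between 10 and 30 FPKM. Mrps21, Mrpl42 and Mrpl20 were the most abundant per kilobase, and Mrpl17 and Mrpl1 the least.

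After fasting, 18 of the 77 genes fell and 2 rose (limma, Benjamini-Hochberg adjusted p under 0.05 over 12377 tested genes). Of all tested genes 16.3% were called lower and 9.56% higher, against 23.4% and 2.60% of the mitochondrial ribosomal protein genes. The falls were modest: the called genes differed by -0.55 to -0.22 in log2(FPKM + 1), where the added 1 makes the change of a weakly expressed gene look smaller than it is. The median difference was -0.11 for the 77 genes and -0.02 for all tested genes. Below 0 were 53 of the 77 genes, and 6844 of the 12377 tested genes. In 14 genes every fasted library was below every ad libitum library, and in 2 every fasted library was above, where 16.5% and 11.1% of tested genes were parted in these directions.

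**Figure D1:**
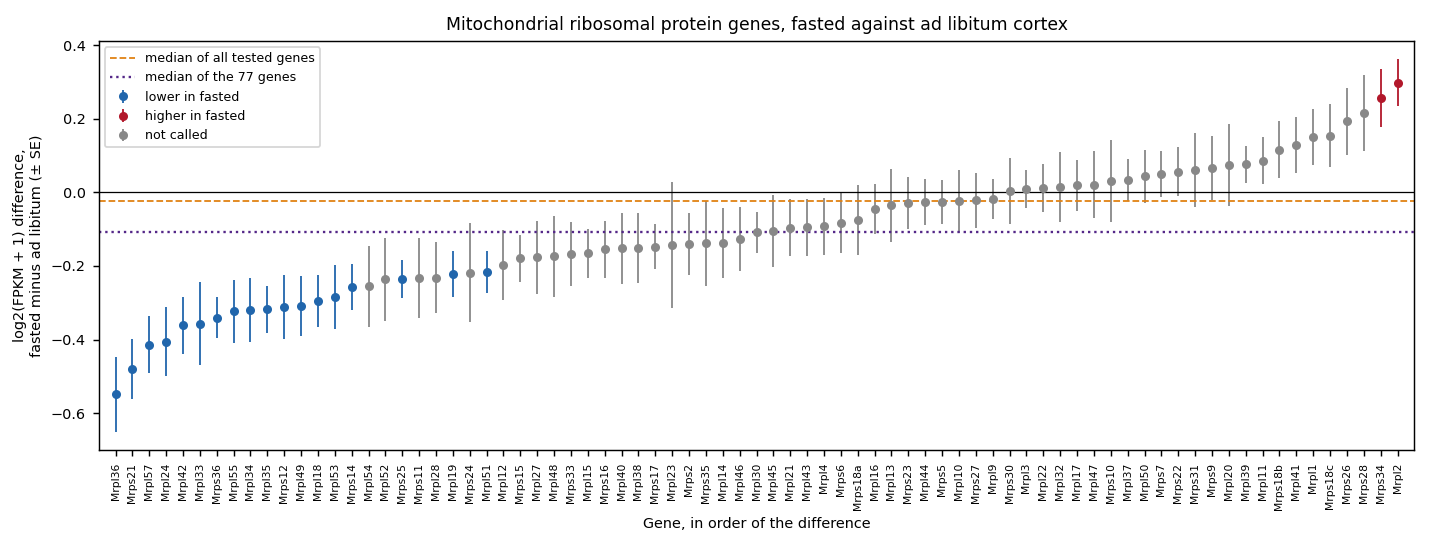
Difference in log2(FPKM + 1), fasted minus ad libitum, for each of the 77 genes (points, with the standard error from limma), in order. The 18 genes called lower (blue) lie between -0.55 and -0.22 and the 2 called higher (red) are Mrps34 and Mrpl2. The dotted line marks the median of the 77 genes and the dashed line that of all tested genes.

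With the replicate number as a block, which rests on correlations across all tested genes that the 77 genes themselves do not share in every pair, 27 of the 77 genes were lower and 4 higher, where 22.1% and 14.3% of tested genes were. The 18 genes called lower without the block were among the 27. The 9 that joined them were Mrps15, Mrps17, Mrpl28, Mrps11, Mrpl12, Mrps33, Mrpl27, Mrpl40 and Mrpl48, and Mrps26 and Mrps28 joined the higher ones. A term for odd or even number instead gave 18 lower and 2 higher, where 16.1% and 9.32% of tested genes were. Median-ratio scaling, upper-quartile scaling and quantile normalization each gave 18 lower and 3 higher. In these 15.4% to 15.7% of tested genes were lower and 14.1% to 14.5% higher. Scaling each library to an equal sum of FPKM left 3 lower and 4 higher, where 4.29% and 12.8% of tested genes were. It shifted the median of all tested genes from -0.02 to 0.08 on the log2 scale, and the 77 genes then had a median of 0.01. In that sum the 10 most abundant symbols made up 24.1% of ad libitum replicate 2 and 3.98% to 13.8% of the other libraries. With curves for GC content and transcript length taken out, 18 were lower and 4 higher, where 16.2% and 15.7% of tested genes were, and 16 of the 18 genes called lower at first were among them.

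Without ad libitum replicate 3, 13 genes were lower and 1 higher, where 11.4% and 6.79% of tested genes were. Leaving out ad libitum replicate 4 gave 29 lower and 2 higher (20.8% and 9.66% of tested genes), and leaving out ad libitum replicate 2 gave 11 lower and 2 higher (11.6% and 7.96%). Ad libitum replicates 2 and 4 held the family's highest and lowest medians among fed mice, with replicate 1 close to replicate 2. The median deviation of the 77 genes from their mean over all libraries was 0.13 and 0.14 in ad libitum replicates 1 and 2, 0.03 in replicate 3 and -0.10 in replicate 4. In the fasted libraries it was 0.03, -0.07, -0.06 and -0.13. Ad libitum replicate 4 thus lay among the fasted libraries, and replicate 4 was the lowest of both groups. The lowest of the 8 values of a gene was in ad libitum replicate 4 for 26 genes and in fasted replicate 4 for 21. On the same measure of deviation, cytosolic ribosomal protein genes stood at 0.19, 0.15, 0.02 and -0.22 in ad libitum replicates 1 to 4. Nuclear-encoded oxidative phosphorylation genes stood at 0.16, 0.14, 0.02 and -0.19 there.

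Over 2013 tested genes with transcripts under 1000 bases the deviation was 0.09 and 0.10 in ad libitum replicates 1 and 2, -0.10 in ad libitum replicate 4 and -0.09 in fasted replicate 4. Their median difference between the groups was -0.06, against -0.003 for 4831 genes with transcripts over 3000 bases. The transcripts of the mitochondrial ribosomal protein genes had a median length of 1138 bases and those of all tested genes 2501. Comparing libraries of equal number, 1 to 4 in turn, 53, 59, 48 and 42 of the 77 genes were lower in the fasted one, with medians of -0.14, -0.19, -0.08 and -0.03. The medians of all tested genes in these comparisons were 0.001, -0.078, -0.024 and 0.006. The part of transcript length in the family's difference was not tested beyond the curves above.

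**Figure D2:**
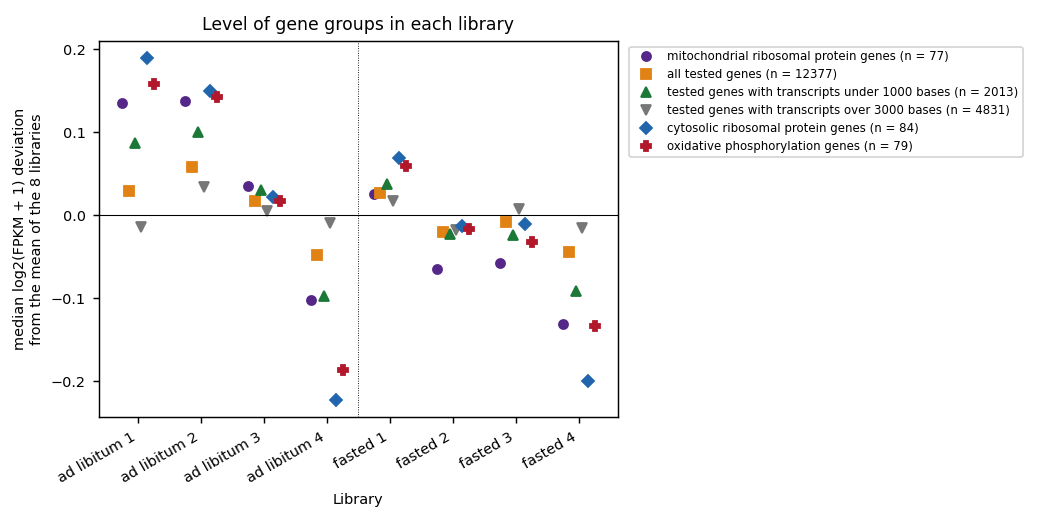
Median deviation of log2(FPKM + 1) from the mean of the 8 libraries, for the 77 mitochondrial ribosomal protein genes and 5 other gene groups (symbols), in each library. The 77 genes stand at 0.13 and 0.14 in ad libitum replicates 1 and 2 and at -0.10 in ad libitum replicate 4. Transcripts under 1000 bases stand at 0.09, 0.10 and -0.10 in these libraries.

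In the large subunit, 13 of 50 genes fell and 1 rose, with a median log2 difference of -0.12. The 50 are the 48 named L together with Mrps18a and Mrps30, whose proteins sit in the large subunit in mammalian structures despite their names. Among 30 homologues of bacterial large-subunit proteins 8 fell and 1 rose, and among 17 large-subunit proteins specific to mitochondria 4 fell. In the small subunit 4 of 26 genes fell and 1 rose, with a median of -0.06. By origin, 3 of 16 small-subunit homologues of bacterial proteins fell, while of 10 proteins listed as specific to mitochondria 1 fell and 1 rose. These 10 include Mrps18b, which is a counterpart of bacterial S18 and was not called. Over all tested genes 16.3% fell and 9.56% rose, against 26.0% and 2.0% in the large and 15.4% and 3.85% in the small subunit, where the share that fell was near that of all tested genes. The groups of 5 to 17 genes here and below are too small to set against these shares, and differences between groups were not tested.

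The largest fall was that of Mrpl36 (ENSMUSG00000021607, chromosome 13, 73328513 to 73332178), which encodes the counterpart of the very small bacterial protein L36. Its level was 13.2, 11.99, 10.96 and 9.25 FPKM in ad libitum replicates 1 to 4 and 8.61, 7.56, 6.99 and 6.54 FPKM in the fasted ones. All fasted libraries were lower than all ad libitum ones. Mean levels were 11.4 ± 1.68 FPKM fed and 7.42 ± 0.892 FPKM fasted (SD, n = 4 each), so the level fell by 34.6%. In log2 units the difference was -0.55 (SE 0.102, limma adjusted p = 0.00311). The call held in all 23 alternatives, with adjusted p up to 0.0128. In the annotation the gene overlaps Ndufs6, on the other strand and with starts 29 bases apart. Ndufs6 was at 80.2 FPKM fed and 75.9 FPKM fasted, and reads in the shared stretch cannot be told apart without strand.

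The 7 other homologues of bacterial large-subunit proteins that fell were Mrpl35, Mrpl34, Mrpl33, Mrpl55, Mrpl24, Mrpl18 and Mrpl19. Mrpl35 (chromosome 6, 71812997 to 71826969) stood at 4.95, 5.47, 5.35 and 5.31 FPKM in ad libitum and at 4.38, 3.75, 4.30 and 3.72 FPKM in fasted libraries. The groups did not overlap, and the log2 difference was -0.32 (SE 0.0647, limma adjusted p = 0.00505). Mrpl34 and Mrpl33, which encode the counterparts of bacterial L34 and L33, had log2 differences of -0.32 and -0.36 (limma adjusted p = 0.0199 and 0.0384), with groups that overlapped. The call of Mrpl34 was lost in 5 of 23 alternatives (adjusted p up to 0.186), among them the removal of fasted replicate 3 and of each of ad libitum replicates 1 to 3. Mrpl33 lost its call in 9 of 23 alternatives, among them the GC and length curves (adjusted p up to 0.117). Mrpl55, assigned to the place of bacterial L31, had a log2 difference of -0.32 (adjusted p = 0.0182).

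At the exit of the tunnel through which new proteins leave, 1 of 8 genes fell. This was Mrpl24 (chromosome 3, 87919506 to 87923672), at 19.4, 20.4, 16.6 and 15.6 FPKM in ad libitum and 15.3, 11.8, 12.7 and 13.6 FPKM in fasted libraries. The highest fasted library was just under the lowest ad libitum one. The log2 difference was -0.41 (SE 0.0935, limma adjusted p = 0.00941). The median of the 8 was -0.01, and Mrpl45, whose product is known to tether the ribosome to the inner membrane, was at -0.10 (adjusted p = 0.457).

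Of 5 genes of the central protuberance, the crest of the large subunit, 1 fell, Mrpl18, with a log2 difference of -0.30 (adjusted p = 0.0115). The other four, Mrpl38, Mrpl40, Mrpl46 and Mrpl48, were at -0.17 to -0.13 and did not pass, while Mrpl40 and Mrpl48 did with the replicate block. In the stalk that binds translation factors 1 of 5 genes fell, Mrpl53 (-0.28, adjusted p = 0.0347). Its call was lost in 7 of 23 alternatives. Mrpl12, the stalk protein known also to bind the mitochondrial RNA polymerase, was at 35.5, 30.7, 31.3 and 24.5 FPKM in ad libitum and at 27.7, 26.4, 26.9 and 24.1 FPKM in fasted libraries. Ad libitum replicate 4 lay within the fasted values. The log2 difference of -0.20 did not pass (SE 0.0941, limma adjusted p = 0.145), and it passed with the GC and length curves, with the replicate block, with both, and without ad libitum replicate 4 (adjusted p from 0.00526 to 0.669 over the alternatives).

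Large-subunit proteins specific to mitochondria included one of the most abundant transcripts. Mrpl42 (chromosome 10, 95480805 to 95501940) stood at 72.6, 77.4, 72.0 and 62.6 FPKM in ad libitum and 62.4, 51.3, 54.3 and 52.6 FPKM in fasted libraries. Only fasted replicate 1 came near the lowest ad libitum library. The log2 difference was -0.36 (SE 0.0779, limma adjusted p = 0.0068). Mrpl57 (chromosome 14, 57826234 to 57829296), formerly Mrp63 and not among the 17, was at 4.79, 4.26, 4.93 and 4.93 FPKM in ad libitum and at 3.96, 3.06, 3.03 and 3.19 FPKM in fasted libraries. It fell by 29.99%, a log2 difference of -0.41 (SE 0.0784, limma adjusted p = 0.00342), and kept its call in all 22 alternatives that tested it. Mrpl49 and Mrpl51 had log2 differences of -0.31 and -0.22, and Mrpl19, a homologue of bacterial L19, one of -0.22 (adjusted p = 0.017, 0.0184 and 0.0238). The groups overlapped in Mrpl49, and its call was lost (adjusted p up to 0.224) with equal-sum scaling, on removal of fasted replicate 2 and on removal of either ad libitum replicate 2 or replicate 3. Mrpl19 lost its call in 5 of 22 alternatives, with adjusted p up to 0.447. Among these were the removal of replicate 1 of either group, of ad libitum replicate 3 and of fasted replicate 4. Mrpl51 and Mrpl55 lost theirs with equal-sum scaling and without ad libitum replicate 2 (adjusted p up to 0.571 and 0.180).

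**Figure D3:**
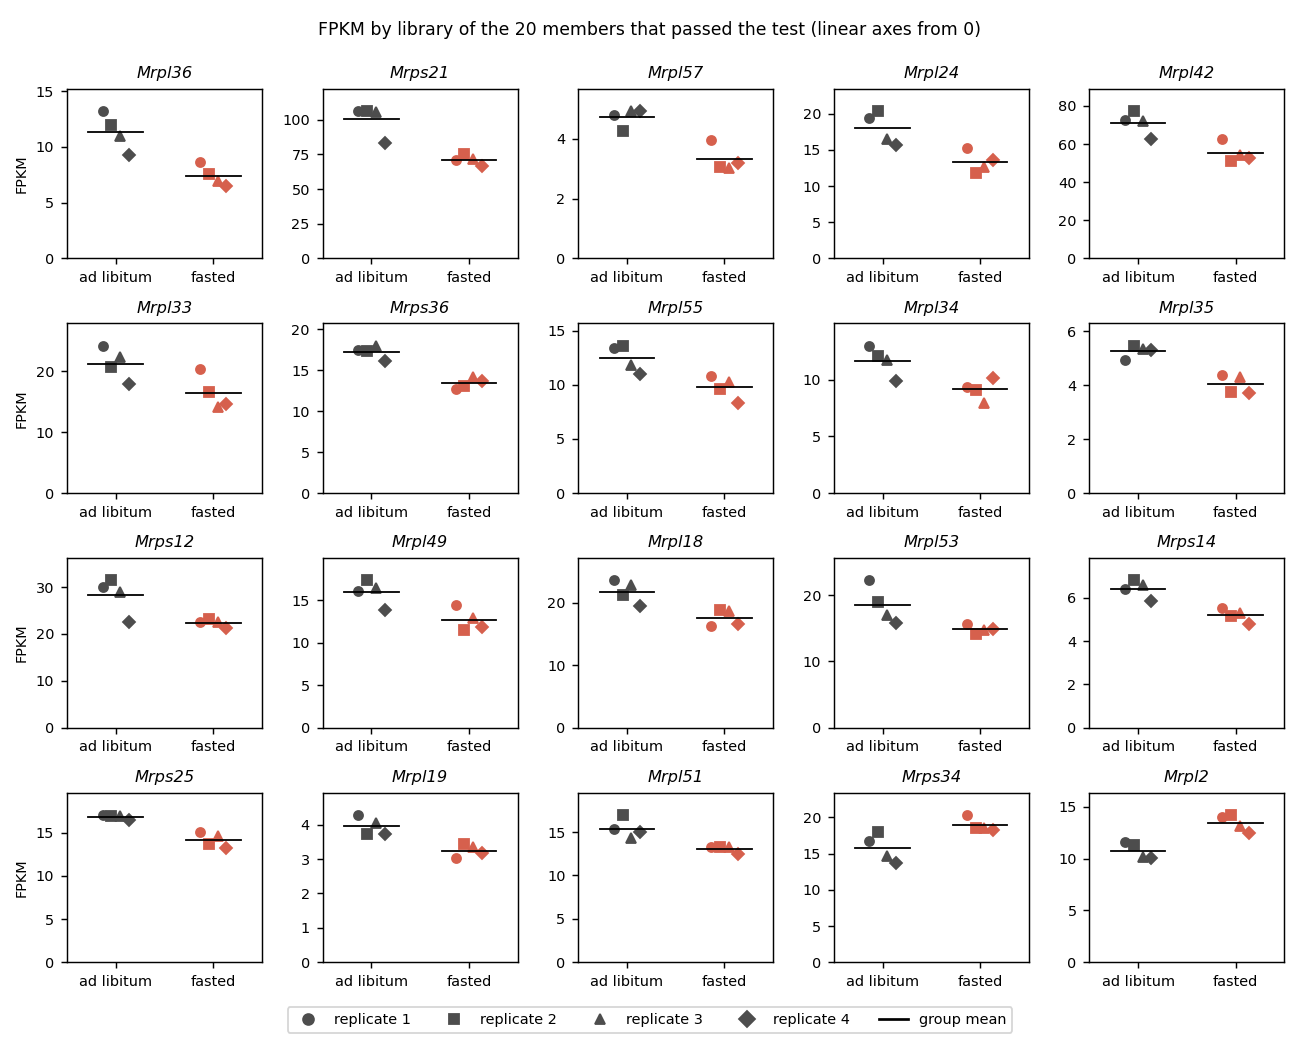
FPKM in each library of the 20 genes that passed the test (points, shaped by replicate number, with a bar at the group mean), on linear axes that start at 0. The 18 genes that fell come first, from Mrpl36 to Mrpl51, and Mrps34 and Mrpl2, which rose, come last.

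In the small subunit the most abundant gene of the family fell. Mrps21 (ENSMUSG00000054312, chromosome 3, 95862634 to 95871519), the counterpart of bacterial S21, was at 106, 106, 105 and 83.2 FPKM in ad libitum and at 71.1, 75.5, 71.6 and 66.4 FPKM in fasted libraries. Ad libitum replicate 4 was well below the other fed libraries and still above all fasted ones. Mean levels were 100.2 ± 11.3 FPKM fed and 71.2 ± 3.76 FPKM fasted (SD, n = 4 each), so the level fell by 28.9%. The log2 difference was -0.48 (SE 0.0817, limma adjusted p = 0.00196). Its transcript of 405 bases was the shortest of the family, where FPKM depends most on how length is counted. With the GC and length curves the log2 difference was -0.48 and the call was lost (adjusted p = 0.158), and it returned with these curves and the replicate block together.

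Mrps25 (chromosome 6, 92169525 to 92184033), specific to mitochondria, was at 17.0, 16.9, 17.0 and 16.4 FPKM in ad libitum libraries, against 15.1, 13.7, 14.6 and 13.3 FPKM in fasted libraries. The groups did not overlap, and the log2 difference was -0.24 (SE 0.0522, limma adjusted p = 0.00774). Mrps12, of the decoding centre, and Mrps14, both bacterial in origin, had log2 differences of -0.31 and -0.26 (adjusted p = 0.0228 and 0.0113). Ad libitum replicate 4 had Mrps12 at 22.6 FPKM, within the fasted range of 21.3 to 23.2, and the call was lost in 6 of 23 alternatives.

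Mrps36 belongs to the family by name, but its product has since been assigned to the 2-oxoglutarate dehydrogenase complex of the citrate cycle. It was at 17.5, 17.3, 18.0 and 16.1 FPKM in ad libitum and at 12.7, 13.1, 14.2 and 13.7 FPKM in fasted libraries. The groups were clearly apart. With a log2 difference of -0.34 (SE 0.0549, limma adjusted p = 0.00152) it had the smallest p of the 77. It has a named pseudogene in the annotation, as do Mrpl23 and Mrpl48, so reads could be shared with a copy.

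Both genes that rose had no overlap between groups. Mrpl2 (chromosome 17, 46646229 to 46650139), which encodes the protein L2 close to the catalytic centre of the large subunit, went from 11.6, 11.3, 10.2 and 10.02 FPKM to 14.0, 14.2, 13.2 and 12.5 FPKM. The log2 difference was 0.30 (SE 0.0632, limma adjusted p = 0.00622), and the call held in all 23 alternatives. Mrps34 (chromosome 17, 24895116 to 24897502), a small-subunit protein known to stabilize the ribosomal RNA of its subunit, went from 16.7, 18.0, 14.6 and 13.7 FPKM to 20.4, 18.6, 18.5 and 18.3 FPKM. Ad libitum replicate 2 came close to the fasted values. The log2 difference was 0.26 (SE 0.0785, limma adjusted p = 0.0331), with adjusted p up to 0.0987 over the alternatives and the call lost with no filter on low values, without ad libitum replicate 3 or without any of fasted replicates 1, 2 and 3.

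The 57 genes not called ran from -0.26 to 0.22, 35 of them below 0 and 29 within 0.1 of 0. Mrpl20, the third most abundant, was at 52.2, 54.2, 50.2 and 37.1 FPKM in ad libitum and 55.1, 44.8, 54.0 and 48.5 FPKM in fasted libraries, with ad libitum replicate 4 the lowest of all (log2 difference 0.07, limma adjusted p = 0.655). The least abundant, Mrpl17, a protein of the tunnel exit, ranged from 2.05 to 2.30 FPKM in ad libitum and from 2.04 to 2.53 FPKM in fasted libraries. Mrpl1, of the mobile stalk that guides spent tRNA out, was at 3.01, 3.23, 3.46 and 3.20 FPKM in ad libitum and 4.07, 3.76, 3.92 and 3.08 FPKM in fasted libraries. Fasted replicate 4 stood among the fed values, and the difference of 0.15 did not pass (adjusted p = 0.165; 0.0401 to 0.335 over the alternatives).

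A single bacterial protein, S18, has 3 counterparts in mammals, and none of the 3 was called. Mrps18a, placed in the large subunit, was at 27.5, 28.3, 25.3 and 21.1 FPKM in ad libitum and 27.7, 22.4, 24.6 and 22.0 FPKM in fasted libraries (log2 difference -0.08, limma adjusted p = 0.593). Mrps18b was at 17.0, 14.3, 15.2 and 13.1 FPKM in ad libitum and at 16.9, 17.5, 15.6 and 14.9 FPKM in fasted libraries (0.12, adjusted p = 0.295). Mrps18c was at 19.8, 16.8, 16.7 and 16.7 FPKM in ad libitum and at 20.7, 20.9, 20.7 and 16.2 FPKM in fasted libraries (0.15, adjusted p = 0.209, and a call of higher with the GC and length curves). In Mrps18c 1 library of each group stood apart from the other three, high in ad libitum and low in fasted cortex.

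The mitoribosome has further proteins whose genes carry other names. Of the 7 listed, 1 is now named Mrpl57 and is described above. Of the other six only Ptcd3, a pentatricopeptide protein of the small subunit, was called. It fell from 13.3 to 11.7 FPKM, a log2 difference of -0.17 (limma adjusted p = 0.0368, and 0.113 with the GC and length curves). Dap3, Chchd1, Aurkaip1, Gadd45gip1 and Ict1 were at -0.18 to 0.01.

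Genes of the machinery around the ribosome were called in both directions. Of 15 translation factors 5 fell and 0 rose by limma (2 were higher at an unadjusted p under 0.05). With the GC and length curves 5 were lower and 2 higher, where 16.2% and 15.7% of tested genes were. Tufm, for the elongation factor that brings tRNA to the ribosome, stood at 24.5 ± 2.91 FPKM fed and 16.1 ± 1.70 FPKM fasted (SD, n = 4 each), a log2 difference of -0.58 (limma adjusted p = 0.00136). Mrrf, for the factor that splits ribosomes after termination, went from 5.80 to 3.75 FPKM (-0.52, adjusted p = 0.00032). Pdf, Gfm2 and Taco1, for the enzyme that removes the formyl group of new chains, a recycling factor and an activator of cytochrome oxidase translation, had log2 differences of -0.27, -0.19 and -0.38. The inner-membrane insertase gene Oxa1l, at 0.21, did not pass (adjusted p = 0.0549) and passed with the replicate block (0.00679) and with the GC and length curves (0.0137).

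Among 28 tested genes of ribosome assembly and rRNA modification 6 fell and 1 rose. These are 21.4% and 3.57%, against 16.3% and 9.56% of all tested genes, and the difference was not tested. The GC and length curves gave 6 lower and 4 higher, where 16.2% and 15.7% of tested genes were. With the replicate block 7 were lower and 3 higher, where 22.1% and 14.3% of tested genes were. Fastkd2, for a protein bound to the large ribosomal RNA, had a log2 difference of -0.47, and Mettl15 and Tfb1m, for methyltransferases of the small ribosomal RNA, had -0.51 and -0.38. Mettl17 was at -0.25 (adjusted p = 0.0082). Of 19 tested genes of mitochondrial aminoacyl-tRNA synthesis 4 fell and 1 rose (21.1% and 5.26%, against 16.3% and 9.56% of all tested genes, likewise not tested). The synthetase genes Aars2, Tars2 and Cars2 had log2 differences of -0.39, -0.28 and -0.33, Qrsl1, for a subunit of the glutamine amidotransferase, -0.31, while Iars2 rose by 0.20 on the log2 scale.

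Transcription and RNA processing in mitochondria gave no call among 19 tested genes by limma. With the replicate block 1 was higher and 1 lower, and with the GC and length curves 3 were higher and 1 lower. At an unadjusted limma p under 0.05, 2 were higher and 2 lower. Fastkd1 and Hsd17b10 came nearest, at 0.19 and -0.26 (adjusted p = 0.0618 and 0.0629). Both passed with the replicate block (limma adjusted p = 0.0455 and 0.00269). With the GC and length curves Fastkd1 passed and Hsd17b10 did not (limma adjusted p = 0.0214 and 0.141). Beside the family, cytosolic ribosomal protein genes had 0 lower and 1 higher of 84 tested genes and a median of -0.09, and genes of nuclear-encoded oxidative phosphorylation subunits 4 lower and 0 higher of 79 and a median of -0.07. At an unadjusted limma p under 0.05 the cytosolic list had 6 lower and 1 higher, and the oxidative phosphorylation list 7 lower and 1 higher. With the replicate block the adjusted counts became 18 lower and 2 higher, and 15 lower and 2 higher. The GC and length curves gave 2 lower and 2 higher, and 2 lower and 5 higher, with medians of -0.03 and -0.02. Under these curves 16.2% of all tested genes were lower and 15.7% higher. Over all tested genes 16.3% were lower and 9.56% higher in the test with no block, 22.1% and 14.3% with the replicate block, and 23.3% and 15.3% at an unadjusted p under 0.05. No test between the lists was made.

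**Figure D4:**
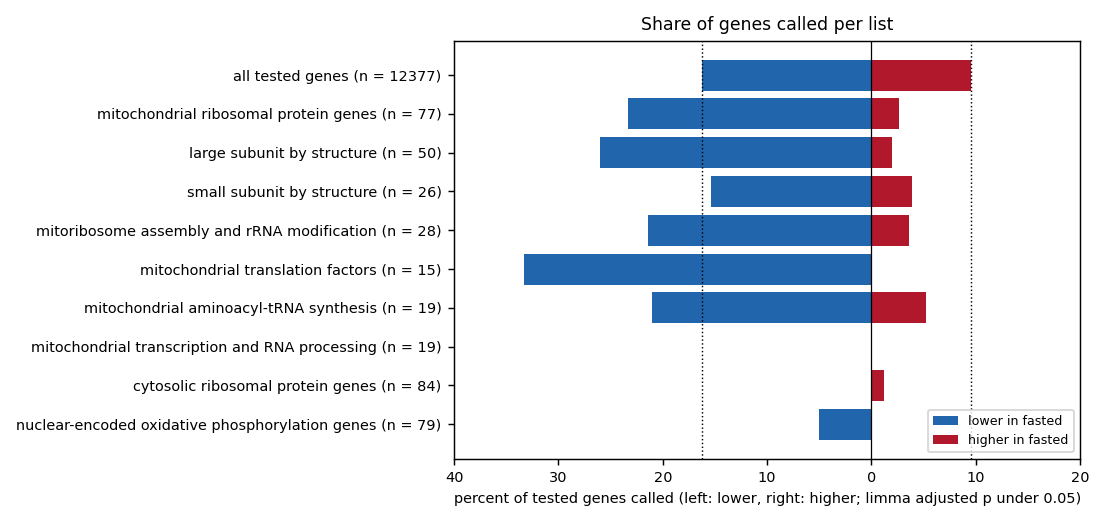
Percent of tested genes called lower (left, blue) and higher (right, red) in fasted cortex for the family, its subunits and 6 related gene lists, with the share over all tested genes as dotted lines. For the 77 genes the bars reach 23.4% and 2.60%, against 16.3% and 9.56% over all tested genes.

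Promoters of nuclear genes for mitochondrial proteins are known for sites of the factors NRF1, GABP (of the ETS family) and YY1. Sequences of 250 bases before to 50 after the annotated start (RefSeq, GRCm38.p6, the first start listed) were found for 68 of the 77 genes. The NRF1 motif, searched as GCGC, any base, then TGCGC, on either strand, was in 19.1% of these, in 10.6% of 9420 tested genes with a promoter and in 4.78% of all 27025 promoters. The other motifs were also searched on both strands. The ETS motif CCGGAAGT was in 16.2%, 8.22% and 4.0% of these sets, and the YY1 motif AAGATGGC in 17.6%, 4.93% and 2.88%. Among 17 genes called lower with a promoter, 2 had the first, 3 the second and 5 the third. Among 50 genes not called the numbers were 11, 8 and 7. These are letter matches, not sites shown to be bound.

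The 10 matches in genes that fell are shown because they mark where the 3 motifs lie, each with up to 10 bases on both sides, 5′ to 3′ along the gene, the match in capitals.
Mrps21, NRF1, chr3:95871586-95871615, minus strand: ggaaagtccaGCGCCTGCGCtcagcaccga
Mrpl57, NRF1, chr14:57826172-57826201, plus strand: tttgaatcctGCGCAGGCGCagaaggcgtc
Mrpl51, ETS, chr6:125192100-125192127, plus strand: aggggctaaaCCGGAAGTatttgactgg
Mrpl18, ETS, chr17:12916314-12916341, minus strand: actgaaaacgCCGGAAGTagggggctgc
Mrpl33, ETS, chr5:31613938-31613965, plus strand: cgcgcatgccCCGGAAGTagtcgttgag
Mrpl36, YY1, chr13:73330969-73330996, plus strand: gtgaccttacGCCATCTTtcttcctggc
Mrpl35, YY1, chr6:71823744-71823771, minus strand: ggcaggctgcAAGATGGCggcttccatc
Mrpl42, YY1, chr10:95501905-95501932, minus strand: agattgaagcAAGATGGCgagcgcgcgg
Mrpl49, YY1, chr19:6057722-6057749, minus strand: ttgaggcgccAAGATGGCagcagcggtg
Mrps12, YY1, chr7:28742003-28742030, minus strand: catggacgcaGCCATCTTggagtggaaa
In Mrpl35, Mrpl42 and Mrpl49 the YY1 match begins 23, 27 and 16 bases after the annotated start and holds the letters ATG. In Mrpl36 it lies on the other strand, 30 bases before the RefSeq start. That start differs from the GENCODE one, and the match lies within the GENCODE span of 73328513 to 73332178. The matches of Mrpl51, Mrpl18 and Mrpl33, which begin before the RefSeq start, also lie within the GENCODE spans of these genes. The 120 bases before the start of Mrps21, the most abundant gene of the family, show its NRF1 match in capitals.
Mrps21, chr3:95871515-95871634, minus strand: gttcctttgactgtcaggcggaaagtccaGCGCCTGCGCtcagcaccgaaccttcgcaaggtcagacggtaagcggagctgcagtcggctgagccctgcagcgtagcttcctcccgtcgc

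Of the 12 genes listed for factors and coactivators that act on such genes, 1 rose and 0 fell by limma (2 were lower at an unadjusted p under 0.05). With the GC and length curves 0 were higher and 1 lower. The gene that rose was Ppargc1b, for a coactivator of mitochondrial genes, which went from 2.67 to 3.49 FPKM (log2 difference 0.30, limma adjusted p = 0.0497, and 0.0944 with the GC and length curves). Gabpa, for the DNA-binding subunit of GABP, was at -0.18 (adjusted p = 0.0603, and 0.0446 with the replicate block).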

How the data were processed

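The deposited values are FPKM per gene for 24883 rows, each library in a column of its own, and the authors' scaling between libraries is not given in the sources used here. Per the submitters' processing notes, TopHat and mm10 were used. The version, the quantifier, the annotation and strandedness are not given there. The highest-mean row was used for 282 repeated symbols. Coordinates, lengths and GC content come from GENCODE M21 (GRCm38, the assembly of mm10), with the transcript of median length for each gene.

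Genes with at least 1 FPKM in at least 4 libraries (12377) were tested with limma 3.58.1 (trend and robust moderation, R 4.3.3) on log2(FPKM + 1), with group as the only term and Benjamini-Hochberg adjustment over all of them, at 0.05. A cautious estimate of depth gave 17300000 to 21400000 fragments per library. Curves for GC content and length were fitted per library with mgcv 1.9.3. The steps were tested on simulated data in which 200 of 12377 genes changed, with noise independent between genes. Of the 200, 14.0% were recovered at 1.2-fold, 92.5% at 1.5-fold and 97.0% at 2-fold, with 2, 5 and 12 false calls. A gene not called may therefore still differ by a small amount. The folds were applied to FPKM + 1, which is a larger change in FPKM for a weakly expressed gene. In the data 25.8% of tested genes were called, a larger share than was changed in the simulation. The recovered shares may therefore differ in the data. Python 3.11.15 and matplotlib 3.10.9 made tables and figures.

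Same-numbered libraries deviated together from their group means, with correlations of 0.574, 0.496, 0.382 and 0.523 across all tested genes. All exceed 0.1, the bound above which equal numbers were treated as pairs. Libraries of unlike number that were both odd or both even exceeded it too (0.165 to 0.381). Those of an odd and an even number were all negative. The pairing rests on the data and not on a label, and the part of sex in it was not tested. Over autosomal protein-coding genes the correlations of equal numbers were 0.339, 0.199, 0.0787 and 0.371, where the third does not exceed 0.1. Unlike numbers reached 0.216 (ad libitum 2, fasted 1) and 0.218 (ad libitum 4, fasted 3) there. Over the 77 genes equal numbers gave 0.246, -0.185, -0.127 and 0.125.

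Values in every library are given for up to 8 called members in each direction with the smallest p, the 3 most and 2 least abundant, the 3 counterparts of S18, Mrps36 and Mrpl12. From each related list up to 4 called genes with the smallest p are named, or 2 where none was. Genes named beyond this rule were chosen after their values were seen. The members and lists were chosen with earlier results of these data known. Of the 77 genes, 26 overlap another protein-coding gene in the annotation, 9 of them called, and reads in shared stretches cannot be told apart without strand.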

Additional observations from a re-analysis of the deposited data

Results flagged for a closer look

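In 13 of 154 groups of 4 libraries (77 genes in both groups), 1 library stood so far from the other three that its gap, as a share of the whole range, passed Dixon's 95% limit, which chance gives in about 1 in 20 groups. Genes share their libraries, so these are not independent. Ad libitum replicate 4 was the low library for Mrps21 (83.2 FPKM, the others 105 to 106), Mrps25 (16.4 FPKM, the others 16.9 to 17.0), Mrps2 (11.97, the others 14.8 to 15.3), Mrps7 (11.5, the others 12.9 to 13.1) and Mrps30 (6.20, the others 8.24 to 8.60). Ad libitum replicate 1 was high for Mrps18c (19.8 FPKM) and Mrpl43 (19.8 FPKM, the others 15.3 to 16.0), and ad libitum replicate 2 for Mrpl14 (9.09 FPKM). Fasted replicate 1 was high for Mrpl57 (3.96 FPKM), Mrps34 (20.4 FPKM) and Mrpl23 (23.1 FPKM, the others 16.6 to 17.6). Fasted replicate 4 was low for Mrps18c (16.2 FPKM) and Mrpl51 (12.5 FPKM). Without ad libitum replicate 4 the number of genes called lower was 29 in place of 18.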

How the results depend on the processing

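The 20 called genes kept their direction in all 457 values recomputed under 23 alternatives, which share most libraries. Of the 18 lower genes 2, Mrpl36 and Mrpl57, kept their call in every alternative that tested them, and 9 did so in all but the equal-sum scaling or all. Genes called lower numbered 18, 3 with equal-sum scaling and 11 to 29 when 1 library was left out (fewest without ad libitum replicate 2, most without ad libitum replicate 4). Median-ratio scaling, upper-quartile scaling and quantile normalization each kept 18 lower, with 3 higher. The medians of the 77 genes were then -0.080, -0.081 and -0.086. Genes called higher numbered 2, 1 with no filter on low values, 4 with equal-sum scaling, 4 with GC and length offsets, 4 with the replicate block, 9 with the replicate block and GC and length offsets together, and 1 to 5 when 1 library was left out. The median log2 difference of -0.11 became 0.0072 with equal-sum scaling and ran from -0.16 to -0.06 when 1 library was left out. With sums over tested genes only, an alternative chosen after seeing the data, 19 genes were lower and 3 higher. Of all tested genes 15.9% and 11.6% were, and the median of the 77 genes was -0.09. The cause of these changes was not tested. The shares of all tested genes moved too. Called higher were 9.56% in the reported test, 6.36% with no filter, 12.8% with equal-sum scaling, 15.7% with GC and length offsets, 14.3% with the block and 20.5% with both, each above the share of the 77 genes (11.7% for the last). When 1 library was left out, 6.79% to 9.66% were called higher, against 1.3% to 6.49% of the 77 genes. Called lower were 4.29% with equal-sum scaling, against 3.9% of the 77 genes, and 11.4% to 20.8% when 1 library was left out, against 14.3% to 37.7%. Depth limits the low genes most: Mrpl17 rested on an estimated 36.4 to 47.0 fragments per library.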

Other observations

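Of the 77 genes, 23 start within 1000 bases of a protein-coding gene on the other strand, in the GENCODE annotation, and 19 of these partners were tested. Among the partners 5 were higher and 2 lower in fasted cortex, where 9.56% of all tested genes were higher and 16.3% lower, and 19 genes are too few to set against these shares. None of the 4 tested partners of a gene called lower was called. Mrpl36, with a log2 difference of -0.55, starts 29 bases from Ndufs6, which encodes a subunit of complex I and was at 80.2 and 75.9 FPKM (-0.07, limma adjusted p = 0.520). These GENCODE starts are not the RefSeq start of Mrpl36 used for its motif. Mrpl49, at -0.31, starts 59 bases from Fau, for a ribosomal protein of the cytosol made as a fusion with a ubiquitin-like protein, which was at 93.2 and 96.0 FPKM (0.06, adjusted p = 0.721). Mrpl51 and Mrps12 lie beside Ncapd2 and Sars2, at 0.15 and 0.12. Mrps34, which rose by 0.26, starts 29 bases from Eme2, for a subunit of a DNA endonuclease, which fell from 4.55 to 3.37 FPKM (-0.35, adjusted p = 0.00148). Mrpl50, at 0.04, starts 83 bases from the zinc finger gene Zfp189, which rose by 0.93, from 2.28 to 5.22 FPKM (adjusted p = 0.000421). The partners were looked up for all 77 genes and these examples chosen after their values were seen.

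The motifs CRE (TGACGTCA), E-box (CACGTG) and CCAAT were also searched on both strands. They were in 2.94%, 7.35% and 39.7% of the 68 promoters and in 3.42%, 10.4% and 38.5% of those of tested genes.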
